A study of Mus musculus with 3 samples.

Results

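Igfbp5, Igf1 and Ghr encode parts of the system by which growth hormone and insulin-like growth factors (IGFs) act on tissues. They were followed here in the bone marrow of castrated mice with and without testosterone. The members were the spots with a value on all 3 arrays for which the platform annotation gave exactly 1 gene, that gene being one of these 3. This rule found 5 of the 6039 spots tested, 2 for Igfbp5, 2 for Igf1 and 1 for Ghr, and 3 of the 3462 genes with a tested spot. The annotation listed 7 spots for these genes in all, and the remaining 2, both of Ghr, lacked a value on at least 1 array.

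C57BL/6 mice castrated at 7 weeks of age carried a pellet of testosterone (12.5 mg, released over 60 days) or of placebo for 4 weeks, and their age at collection is given as 17 weeks. Both groups were therefore castrated, and the placebo mice stand for the absence of replacement, not for an intact mouse. Each of 3 two-colour spotted arrays, T1, T2 and T3, set the RNA of 1 testosterone mouse against that of its matched placebo mouse (n = 3 pairs), with testosterone in Cy5 on T1 and T3 and in Cy3 on T2. The labels name the tissue as bone marrow, while the extraction protocol speaks of pulverized bone, so that cells of bone, vessels and adjoining muscle could be present.

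Every value is a ratio within a pair, read as log2 of testosterone over placebo. Ratios carry no expression level, so neither the abundance of a gene nor the tissue label could be checked against marker levels. The direction is likely and not settled: the series' design names testosterone as the experimental channel, and the numerator of the deposited ratios is not stated. That the base of the logarithm is 2 was judged from how far the values reach, so folds rest on it. A bulk ratio cannot tell fewer cells of a type from less RNA per cell.

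Growth hormone binds its receptor, the product of Ghr, and through the kinase JAK2 and STAT5 raises transcription of Igf1, in the liver for the circulation and in many tissues, bone among them, for local use. IGF1 acts through the receptor IGF1R and the AKT and MAPK pathways, and in the skeleton it supports the formation of bone. IGF-binding proteins hold IGFs in the fluid around cells. IGFBP5, which also binds to bone matrix, can either restrain or enhance the action of IGFs.

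Igfbp5 was the gene with the change. The sequence directly upstream of its RefSeq start is shown to place the gene. It lies on the minus strand of GRCm38.p6 at chr1:72874866-72875115, is printed 5′ to 3′ and ends at the base before the annotated start. Capitals mark its only match to CANNTG, the E-box to which basic helix-loop-helix factors bind.

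Igfbp5 upstream: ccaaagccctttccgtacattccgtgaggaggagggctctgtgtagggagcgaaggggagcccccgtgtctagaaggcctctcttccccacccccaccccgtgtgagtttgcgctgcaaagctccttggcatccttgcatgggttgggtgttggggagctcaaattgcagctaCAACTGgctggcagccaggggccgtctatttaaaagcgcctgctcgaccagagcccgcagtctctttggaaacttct

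The upstream 250 bases of every start in the RefSeq table were searched on both strands. AGAACA, the half-site at which the androgen receptor binds, was found in 16.1% of 32851 windows. It was in neither the window of Igfbp5, nor that of Igf1, nor the 2 windows of Ghr. CANNTG was in 66.2% of all windows, in those of Igfbp5 and Igf1 and in 1 of the 2 of Ghr. These are matches of letters in short windows, and the arrays measured transcripts and not binding.

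The binding protein gene Igfbp5 was lower with testosterone on every array and at both of its spots, which the annotation ties to different transcript entries. Spot 1766 read -1.36 on T1, -1.47 on T2 and -1.55 on T3. Spot 2191 read -1.20 on T1, -2.24 on T2 and -1.58 on T3. All 6 readings thus lay below -1.2, and T2 at spot 2191 stood farthest from 0. Spot 1766 had a mean log2 ratio of -1.46 ± 0.095 (SD, n = 3), or 2.76-fold lower, with adjusted p = 0.000322 by limma with Benjamini-Hochberg adjustment over all spots. Spot 2191 had a mean of -1.67 ± 0.52 (n = 3), 3.19-fold lower, with adjusted p = 0.00281 by limma. Of all spots tested, 2.83% passed in either direction and 1.71% as lower.

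**Figure D1:**
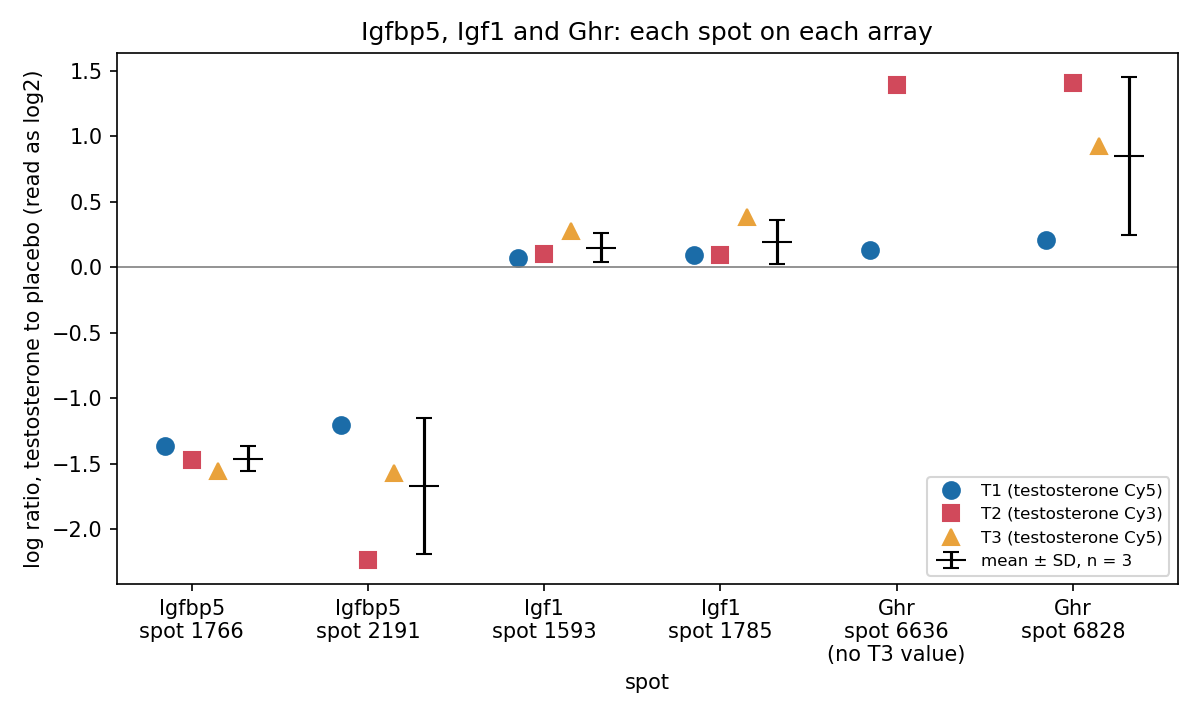
Log ratio of testosterone to placebo (vertical axis, read as log2) at each spot of Igfbp5, Igf1 and Ghr (horizontal axis); symbols are the arrays T1, T2 and T3 and black bars the mean ± SD over 3 arrays. All 6 Igfbp5 readings lie below 0 and all readings of Igf1 and Ghr above 0, with Ghr near 0.2 on T1 and at 1.41 on T2.

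The Igfbp5 spots stood apart mainly on 1 array. They differed by 0.16 on T1, by 0.76 on T2 and by 0.022 on T3. Among 965 pairs of tested spots with the same gene and different entries, the median difference on T2 was 0.23 and the 95th percentile 0.87. The T2 difference of Igfbp5 was therefore large and still within the range of such pairs.

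Averaged over its spots, Igfbp5 read -1.28 on T1, -1.85 on T2 and -1.56 on T3. Its gene mean was -1.57 ± 0.29 (n = 3), 2.96-fold lower, with a 95% interval from 2.42-fold to 3.63-fold lower and adjusted p = 0.000682 by limma over all genes. The background of this comparison was 3.24% of genes passing as lower and 4.91% passing in either direction. Ordered from the lowest mean, Igfbp5 had rank 12 among the 3462 genes, with rank 26 on T1, 8 on T2 and 9 on T3. Its call did not depend on any single array: the mean was -1.71 without T1, -1.42 without T2 and -1.57 without T3 (n = 2 each). The adjusted p was 1.6e-11, 0.0172 and 0.0127 by limma in that order. The first of these rests mainly on limma's variance pooled over all genes, and not on the 2 pairs alone.

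With the sign of T2 turned, which treats the deposited values as Cy5 over Cy3 throughout, the Igfbp5 mean was -0.33 and did not pass (adjusted p = 0.999 by limma). In that reading T2 alone would show Igfbp5 higher with testosterone, against T1 and T3, which share a dye orientation. By limma 0 of the 3462 genes passed in that reading, and 19 had an unadjusted p under 0.05.

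Igf1, the ligand, had small positive readings. Spot 1593 read 0.072 on T1, 0.10 on T2 and 0.28 on T3. Spot 1785 read 0.096 on T1, 0.096 on T2 and 0.38 on T3. T3 was the highest at both, and no reading was below 0. The spots share 1 transcript entry and are numbered 192 apart, so they are repeats and not independent evidence.

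The repeats show how finely these arrays could read Igf1. Its spots differed by 0.024 on T1, 0.0050 on T2 and 0.11 on T3. Of 619 pairs of spots with 1 entry numbered 192 apart, T1 had both values for 434, T2 for 381 and T3 for 408. Among them the median difference came to 0.061 for T1, 0.10 for T2 and 0.11 for T3. Igf1 gene values of 0.084 on T1 and 0.099 on T2 were thus about as large as the median difference between repeats, and the T3 value of 0.33 was larger.

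The Igf1 gene mean was 0.17 ± 0.14 (n = 3), 1.13-fold higher, and did not pass (adjusted p = 0.311 by limma). Its 95% interval ran from 1.05-fold lower to 1.33-fold higher, so a change of Igf1 of the size seen for Igfbp5 lay outside it in either direction. Ordered from the highest, Igf1 had rank 620 by its mean and rank 322 on T3. Without T3 the mean was 0.091, and without T1 and without T2 it was 0.21.

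Ghr, the growth hormone receptor gene, had ratios above 0 in all 3 pairs, and the pairs differed in size. Spot 6828, the only Ghr spot with 3 values, read 0.21 on T1, 1.41 on T2 and 0.93 on T3. In fold terms the pairs ran from 1.15 on T1 to 2.65 on T2, with 1.90 on T3. Spot 6636 of the same entry read 0.13 on T1 and 1.39 on T2 and had no T3 value. The repeats differed by 0.075 on T1 and 0.013 on T2, so the gap between T1 and T2 was found at both. Spot 9798 had no value on any array. The annotation ties all 3 spots to a genomic clone entry and not to a transcript, which leaves the part of the gene they read unstated.

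The Ghr mean was 0.85 ± 0.60 (n = 3), 1.80-fold, with a 95% interval from 1.30-fold to 2.48-fold higher. It missed the threshold of 0.05 narrowly, with adjusted p = 0.0521 by limma over all spots and 0.053 over all genes. Of all spots 1.13% passed as higher, and of all genes 1.68%. Ordered from the highest, Ghr had rank 15 by its mean, rank 20 on T2 and 23 on T3, and rank 615 on T1. The call turned on T1: without it the mean was 1.17 and passed (adjusted p = 1.5e-07 by limma, n = 2), where 8.38% of all genes passed as higher. Without T1 the intervals of Igfbp5, Igf1 and Ghr were about equally wide. That p therefore rests mainly on limma's variance pooled over all genes, and not on the spread of Ghr between 2 pairs. Leaving out T2 gave 0.57 (adjusted p = 0.263 by limma) and leaving out T3 gave 0.81 (adjusted p = 0.273), with n = 2 each. With the sign of T2 turned the mean was -0.091.

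**Figure D2:**
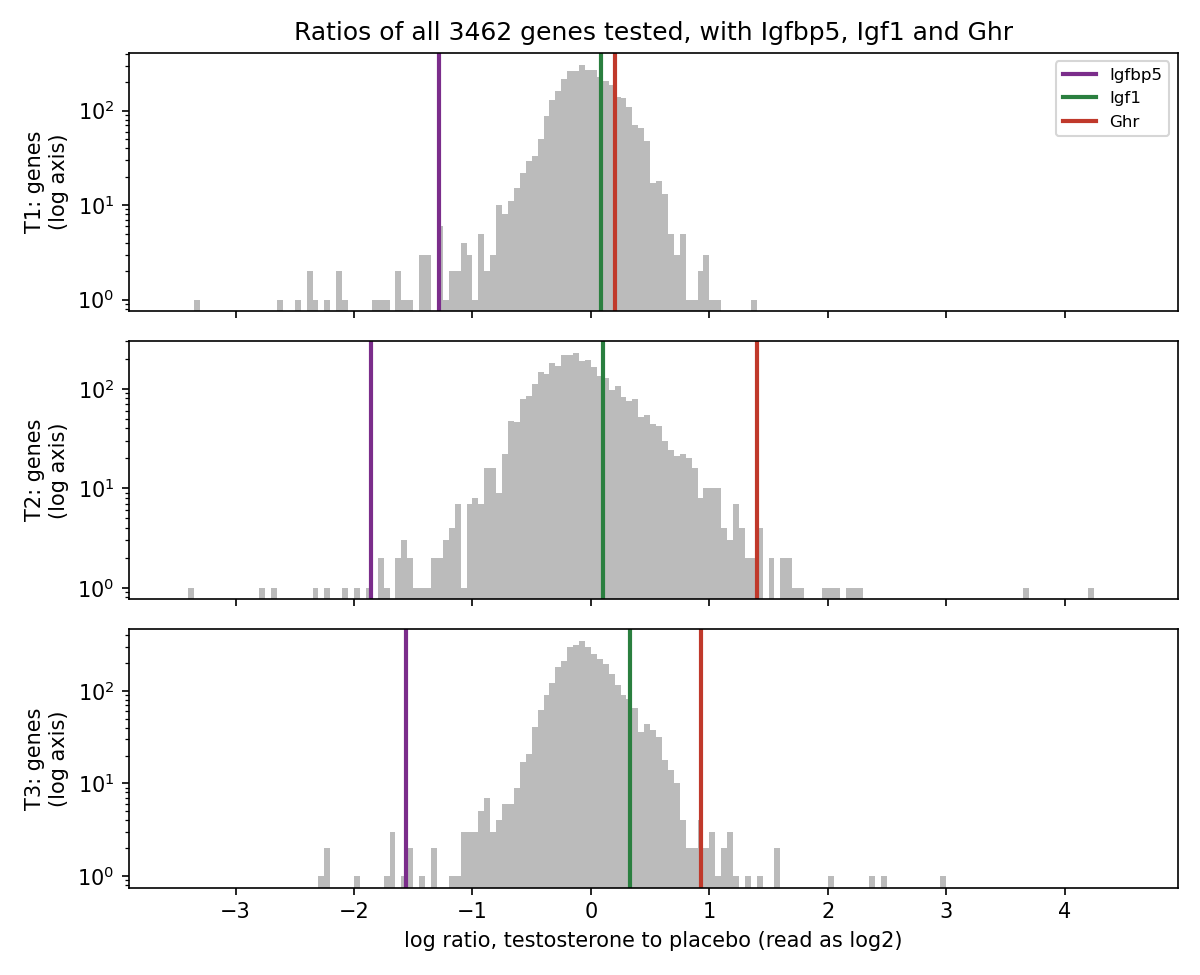
Number of genes (vertical axis, log scale) by log ratio of testosterone to placebo (horizontal axis, read as log2) on T1, T2 and T3, with lines at Igfbp5, Igf1 and Ghr. Igfbp5 sits in the low tail of all 3 arrays, Igf1 in the main body, and Ghr in the body on T1 and in the high tail on T2 and T3.

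Set side by side, the 3 genes kept 1 order on every array, with Igfbp5 lowest, Igf1 next and Ghr highest. The Igf1 ratio exceeded that of Igfbp5 by 1.37 on T1, 1.95 on T2 and 1.89 on T3, a mean difference of 1.74 ± 0.32 (n = 3) on the log2 scale. The Ghr ratio exceeded that of Igfbp5 by 1.49, 3.26 and 2.49, a mean of 2.41 ± 0.89. Between Ghr and Igf1 the differences were 0.12, 1.31 and 0.60, a mean of 0.68 ± 0.60, and on T1 this neighbour difference was small. The exact two-sided sign-flip permutation test gave p = 0.25 for each of these 3 differences, also after Benjamini-Hochberg adjustment, which is the smallest p that 3 pairs allow.

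The wider list of growth hormone and IGF signalling held 87 genes, of which 38 had a spot on the array and 27 were tested. By limma over all genes, 2 were lower (3.24% of all genes), Igfbp5 and Foxo1, 0 were higher (1.68% of all genes) and 25 did not pass. At an unadjusted p under 0.05 by limma there were 3 higher and 4 lower, together 25.9% of the list, beside 28.1% of all genes (12.0% higher and 16.1% lower). The median of the 27 gene means was -0.090, beside -0.071 over all genes tested. Apart from Igfbp5, Igf1 and Ghr, the list had 1 gene lower and 0 higher among 24, with 2 higher and 3 lower at an unadjusted p under 0.05, or 20.8%. Without T1 the full list had 6 genes past the threshold, with Ghr and Igfbp4 higher and Akt1 and Inpp5d lower in addition. These were 22.2% of the list, and without T1 18.0% of all genes passed (8.38% as higher and 9.62% as lower). The list's shares were thus near those of all genes.

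Among ligands, Igf1 was the only one with complete values, and the 3 spots of Igf2, the fetal growth factor, had none on any array. Among receptors, Igf1r, the signalling receptor of IGF1, had a gene mean of 0.072 ± 0.35 (adjusted p = 0.759 by limma, n = 3), from 0.47 on T1 to -0.17 on T2, T3 lying between at -0.078. Its mean was -0.13 without T1, so no direction can be given. Igf2r, which clears IGF2 to the lysosome, had -0.035 ± 0.12 and likewise changed sign without T1 (0.012) and after median centring (0.0030).

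Of the binding proteins, Igfbp4 was the only one tested besides Igfbp5. Igfbp4, an inhibitory IGF-binding protein, read 0.23 on T1, 1.23 on T2 and 0.47 on T3. All 3 readings were above 0, on the opposite side from Igfbp5, and T2 was the highest. Its mean of 0.64 ± 0.52 (n = 3) did not pass (adjusted p = 0.0746 by limma), and it was 0.85 without T1 (adjusted p = 9.83e-05) and -0.18 with T2 turned. The spots of Igfbp3, Igfbp6 and Igfals, which make up the rest of the binding proteins on the array with 1 gene name, had no value.

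Of the relay below Ghr, Jak2, the kinase bound to the receptor, was read by 5 complete spots and had a gene mean of -0.0076 ± 0.096 (adjusted p = 0.97 by limma, n = 3), with a sign that changed with centring. Its 95% interval reached 0.24 below and 0.22 above 0 on the log2 scale. Sh2b1, an adaptor of JAK2, had -0.18 ± 0.25. The feedback genes Socs2 and Cish, which growth hormone induces through STAT5, and their relative Socs1 had no spot with a value on all 3 arrays. Of the phosphatases, Inpp5d, the lipid phosphatase SHIP1 of blood cells, had -0.47 ± 0.30 (adjusted p = 0.0703 by limma) and Ptpn1, a tyrosine phosphatase of insulin and IGF receptors, -0.25 ± 0.35.

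Of 8 adaptor and PI3K-AKT genes, 0 passed by limma, with 1 higher and 1 lower at an unadjusted p under 0.05 (12.0% and 16.1% of all genes). The lower was Akt1, a kinase activated downstream of IGF1R, which read -0.34 on T1, -0.94 on T2 and -0.40 on T3. Its mean was -0.56 ± 0.33 (n = 3; adjusted p = 0.0555 by limma) and was 0.068 with T2 turned. Akt2, a related kinase, had -0.26 ± 0.29. The higher was Gab1, a docking protein of receptor kinases, with 0.29 ± 0.12 (adjusted p = 0.117 by limma).

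Foxo1 was the other gene of the list that fell. It encodes a transcription factor that AKT excludes from the nucleus and that B-cell progenitors also require. Its gene value over 2 spots read -1.26 on T1, -1.40 on T2 and, closest to 0, -1.01 on T3. The mean was -1.22 ± 0.19 (n = 3; adjusted p = 0.00127 by limma), and like Igfbp5 it was low on every array. With T2 turned it was -0.29 and did not pass. The remaining genes of that output, 6 of 7, did not pass, among them the mTOR complex subunit Rictor (-0.19 ± 0.15) and the translation factor Eif4e (-0.17 ± 0.14). The MAPK kinases Map2k1 (-0.10 ± 0.24) and Map2k2 (-0.16 ± 0.19) did not pass either.

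**Figure D3:**
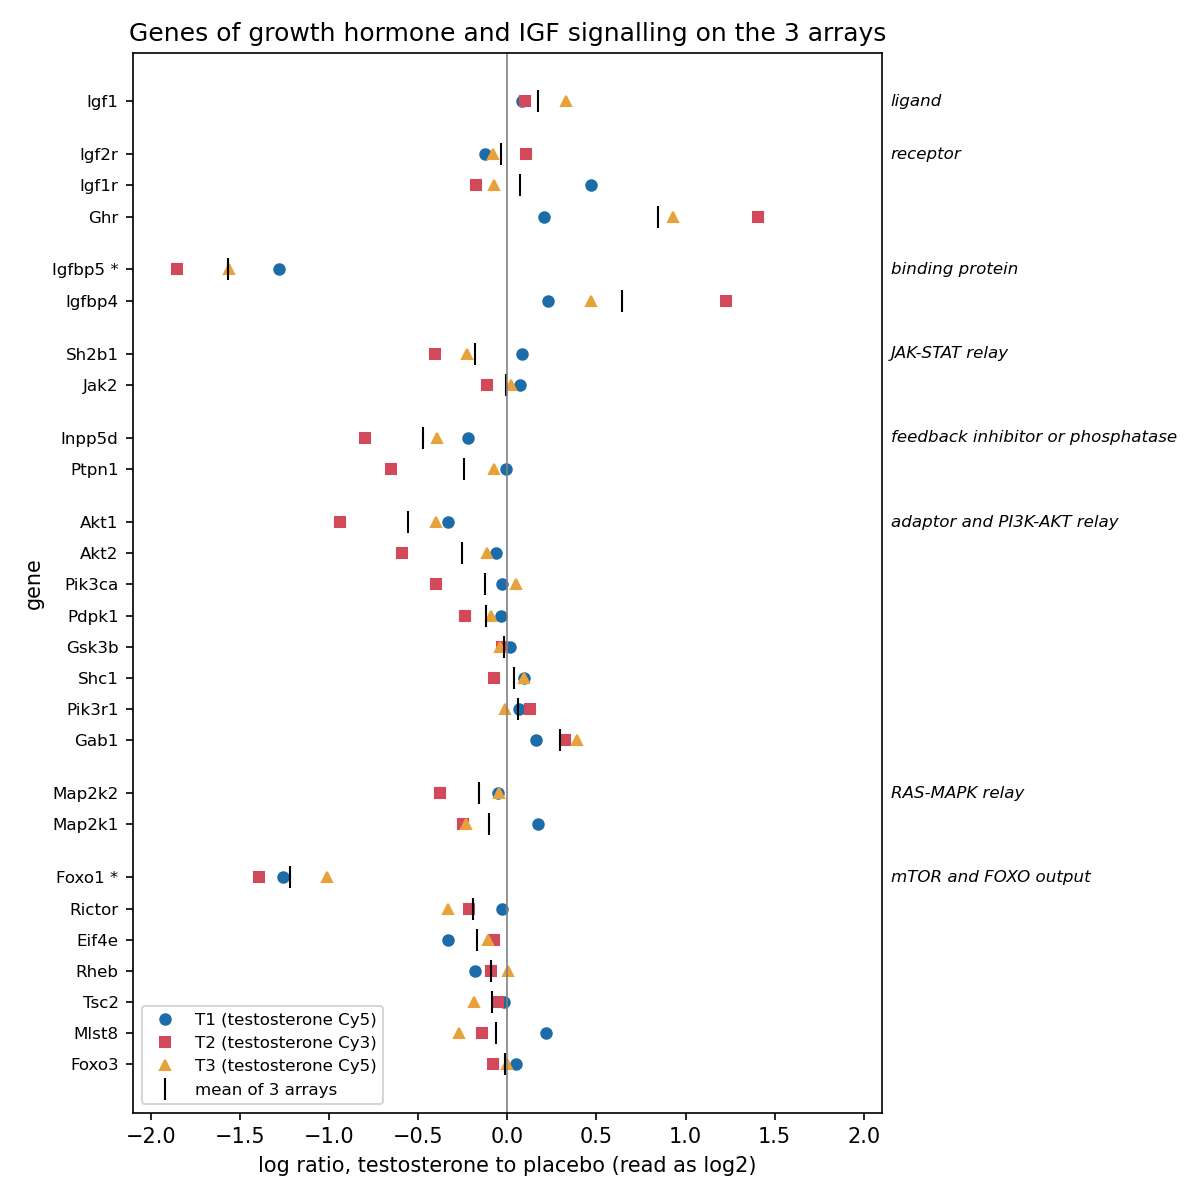
Log ratio of testosterone to placebo (horizontal axis, read as log2) of the 27 tested genes of growth hormone and IGF signalling, ordered by role, with 1 symbol per array and a bar at the mean. The asterisk marks the 2 genes that passed the threshold, Igfbp5 and Foxo1, whose 3 arrays all lie well below 0. Ghr and Igfbp4 spread from near 0.2 on T1 to above 1.2 on T2.

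Markers of the cell types that bone and marrow hold were read beside the 3 genes. Of 7 tested genes of the B lineage, 6 fell, 0 rose and 1 did not pass. Of all genes, 3.24% passed as lower and 1.68% as higher. The B-lineage gene means ran from -2.98 (Vpreb3) to -0.25 (Ms4a1). The list's median stood at -2.14 on T1, -2.24 on T2 and, highest of the arrays, -1.65 on T3. The 6 were Vpreb3, Bach2, Cd79b, Pou2af1, Il7r and Blk, genes of B-cell precursors and B-cell receptor signalling, of which Il7r no longer passed without T2 (adjusted p = 0.0611 by limma). Igfbp5 and the list's median were thus both below 0 on every array. Their sizes differed, with Igfbp5 closest to 0 on T1 (-1.28) and the median closest to 0 on T3. Ms4a1 was above 0 on T2, at 0.054. The part of these markers in the Igfbp5 change was not tested.

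By Euclidean distance between gene values on the 3 arrays, the genes nearest to Igfbp5 were Lrmp (distance 0.21), Siglecg (0.46) and Blk (0.52). Lrmp, a membrane protein of the endoplasmic reticulum in lymphocytes, read -1.41 on T1, -1.77 on T2 and -1.42 on T3. Siglecg, a sialic acid receptor of B cells, had a mean of -1.61 ± 0.057, and Blk, a kinase of B cells, -1.56 ± 0.081 (n = 3 each). Nearness over 3 arrays is a description of these ratios and was not tested.

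Stromal cells and osteoblasts are known sources of IGFs and their binding proteins. Of 8 marrow stroma genes 0 fell (3.24% of all genes), 1 rose (1.68% of all genes) and 7 did not pass, with a median of -0.061. At an unadjusted p under 0.05 by limma, 0 were lower and 2 higher, where 12.0% of all genes were higher and 16.1% lower. The 1 that rose was Grem1, a BMP antagonist of stromal cells (0.88 ± 0.38, n = 3; adjusted p = 0.0245 by limma, 0.198 without T2 and 0.243 without T3). Of 3 osteoblast and matrix genes none passed, 1 was lower at an unadjusted p under 0.05 by limma, and the list's median ran from 0.42 on T1 to -1.11 on T2, T3 lying between at -0.16. The SD over pairs was 1.13 for Col1a1, 0.76 for Col1a2 and 0.50 for Sparc, all bone matrix genes, beside 0.29 for Igfbp5.

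Ghr is expressed in fat and muscle as well as in stroma. Of 3 adipocyte genes, 1 fell, beside 3.24% of all genes. It was the stearoyl desaturase Scd1 (-1.21 ± 0.41, n = 3, adjusted p = 0.0058 by limma, and 0.0843 without T2). All 3 adipocyte means were below 0, and 2 were lower at an unadjusted p under 0.05 by limma (16.1% of all genes). Of 5 skeletal muscle genes none passed by limma (4 lower at an unadjusted p under 0.05, beside 16.1% of all genes), and the list's median lay between -0.032 on T1 and -0.82 on T2, being -0.45 on T3. The median of the muscle markers was thus nearest 0 on T1 and lowest on T2, the arrays on which Ghr was lowest and highest. Ratios over all genes also spread most on T2, with an SD of 0.44 beside 0.31 on T1 and 0.31 on T3. Of the stroma genes, Grem1 read 0.45 on T1, 1.18 on T2 and, in between as for Ghr, 1.02 on T3. Ebf3, a transcription factor of marrow stroma, read 0.35, 0.68 and 0.36 in that order (adjusted p = 0.053 by limma). Of the 8 stroma genes, 3 had means above 0, Grem1 and Ebf3 among them, and 5 had means below 0. The median of the 8 did not follow Ghr, at -0.042 on T1, -0.048 on T2 and, highest, 0.095 on T3. The part of these markers in the Ghr ratio was not tested. The genes nearest to Ghr were Osbpl1a (distance 0.19), a sterol-binding protein, Cc2d2b (0.21) and the potassium channel Kcnj16 (0.25).

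Macrophages are a source of Igf1 in marrow. Of 6 macrophage genes none passed by limma, while 3 were higher and 0 lower at an unadjusted p under 0.05 (12.0% and 16.1% of all genes), and the list's median stood at 0.19 on T1, 0.22 on T2 and 0.14 on T3. Igf1 itself read 0.084 on T1, 0.099 on T2 and 0.33 on T3. It was thus below that median on T1 and T2, and highest on T3, where the median was lowest. The part of these markers in the Igf1 ratio was not tested. Of 3 endothelial genes none passed or had an unadjusted p under 0.05 by limma. The genes nearest to Igf1 were the cadherin Cdh11 (distance 0.032), the amino acid transporter Slc43a1 (0.074) and Eloc, a subunit of the elongin complex (0.078).

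**Figure D4:**
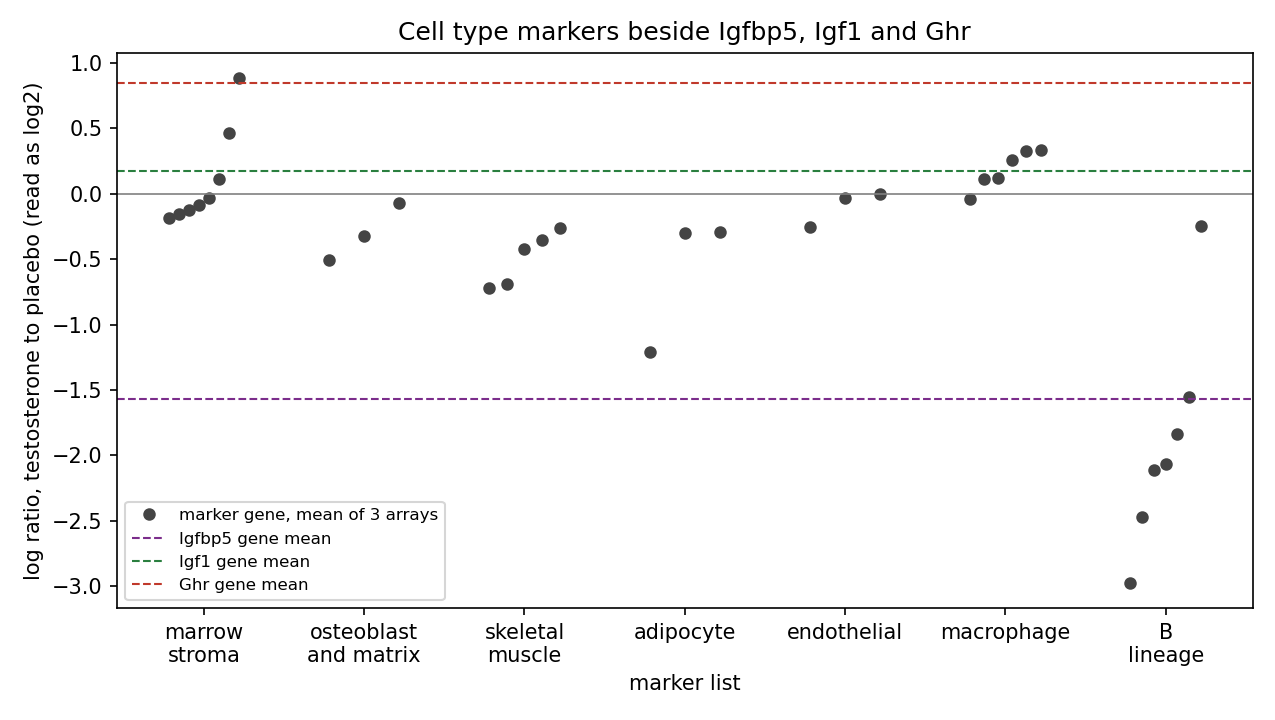
Mean log ratio of testosterone to placebo over 3 arrays (vertical axis, read as log2) of each tested marker gene, by cell type list (horizontal axis), with dashed lines at the gene means of Igfbp5, Igf1 and Ghr. Igfbp5 at -1.57 lies within the range of the B-lineage markers and below every tested marker of stroma, bone, muscle, fat, endothelium and macrophages.

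The choice of setting mattered differently for the 3 genes. Igfbp5 passed by limma in each setting tried except with T2 turned, and Igf1 passed in none. Ghr passed without T1, with a dye term (mean 0.99, adjusted p = 0.0327 by limma) and after centring and scaling (mean 0.85, adjusted p = 0.042). Its adjusted p in the remaining settings at the 0.05 threshold ran from 0.053 to 0.999. Only T2 had testosterone in Cy3, so the dye term cannot be told apart from that 1 pair. With this term T2, where Ghr was highest, weighed as much as T1 and T3 together.

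**Figure D5:**
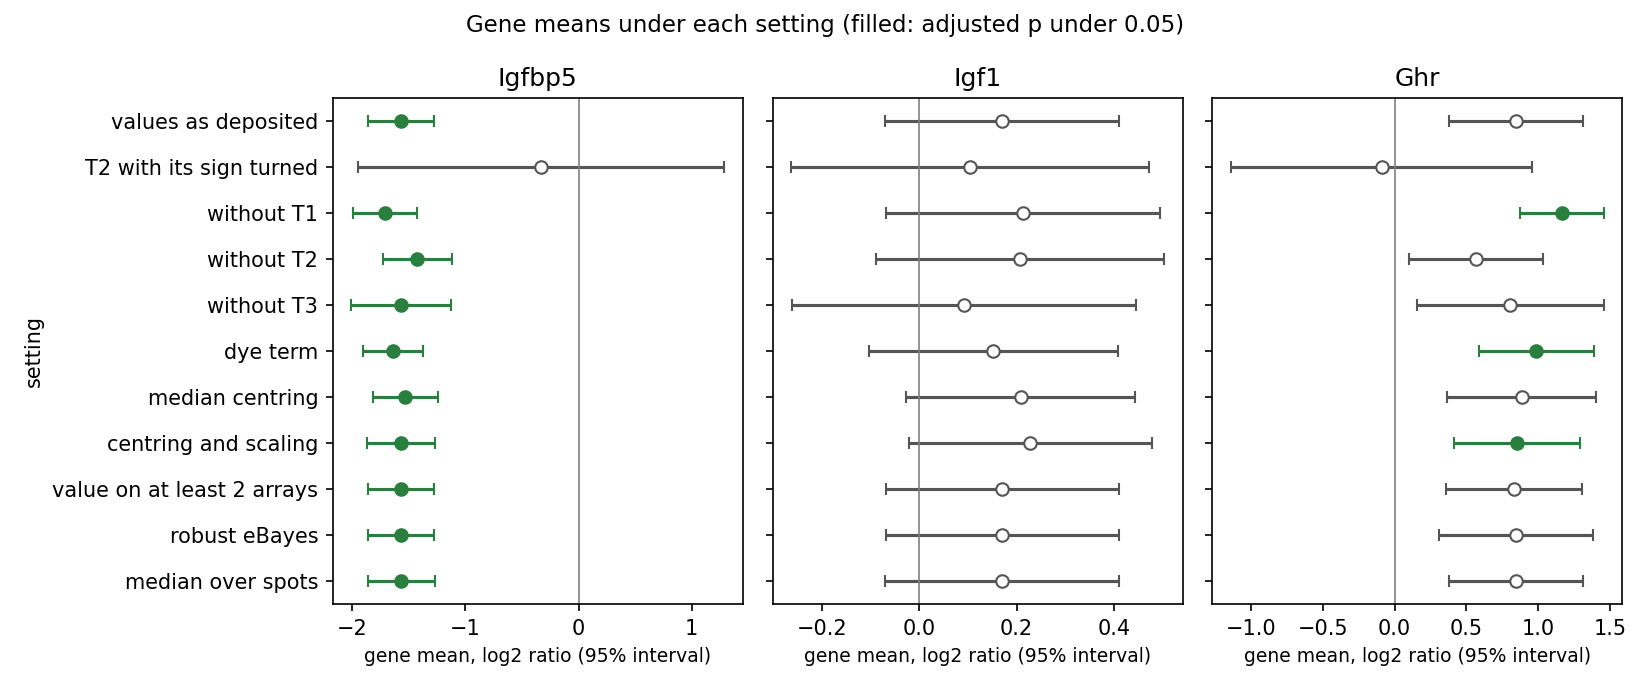
Gene mean log2 ratio of Igfbp5, Igf1 and Ghr (horizontal axes, with different scales) with its 95% interval from limma under each setting (vertical axis); filled symbols have an adjusted p under 0.05. Igfbp5 stays between -1.71 and -1.42 in all settings other than the turned T2, at -0.33, where its interval crosses 0.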

How the data were processed

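Each deposited value is a signed log ratio of one spot on one array, read as log2 since a reach from -3.37 to 4.47 makes base 10 implausible. With a natural log every fold would be larger. RNA was labelled through aminoallyl cDNA, per the labels' protocols, and what the authors used for scanning, background, filtering and normalization is not given in the sources used here. Signs were kept as deposited. Over tested spots the arrays correlated at r = 0.422 (T1, T2), 0.488 (T1, T3) and 0.734 (T2, T3).

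Of 11552 spots, T1 held values for 9007, T2 for 6771 and T3 for 6982. Gene symbols come from the platform annotation, brought up to date by Entrez ID with the RefSeq table of GRCm38.p6 (7880 of 8050 single-gene spots matched). The upstream sequence is from RefSeq. Control or non-mouse spots (66, of which 12 complete) were left out. Complete spots, and gene means over them, were tested against 0 in both directions with limma 3.58.1 (lmFit, eBayes, R 4.3.3). Benjamini-Hochberg adjustment and a threshold of 0.05 were used. The fit was run on simulated spots with planted changes and independent noise. That simulation held no array or dye effects, so it does not test error control in these data. Only 3 arrays limit the precision. The p-values and intervals of limma combine a gene's own spread between 3 mouse pairs with a variance pooled over all genes or spots. They can therefore be smaller or narrower than the own spread alone would give, as for Ghr. Its limma standard error of 0.20 is of the mean, and its SD of 0.60 is of single pairs. The gap between these 2 values is therefore only partly due to pooling. Fits with 1 array left out have 2 pairs and lean more on the pooled variance.

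Named genes are the members, list genes past the threshold, the 3 with the lowest p per role, the 3 nearest genes per member and markers past the threshold. Ms4a1 as a range end, Ebf3, the bone matrix genes and genes without complete values were chosen after their values were seen. Members and lists were chosen with earlier results of these data known. As alternatives, T2 was turned, single arrays left out, a dye term added, arrays centred or also scaled, 2 values accepted, eBayes made robust, the threshold set to 0.10 and spots summarised by their median.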

Additional observations from a re-analysis of the deposited data

How the results depend on the processing

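Calls over all spots numbered 171 as deposited, 0 with T2 turned (20 at an unadjusted p under 0.05 by limma), 1309 with a dye term, 57 after median centring, 816 after centring and scaling, 1165 at a threshold of 0.10, and 38 to 1095 with 1 array left out. Calls over all genes numbered 170, against 0 with T2 turned (19 at an unadjusted p under 0.05), 385, 61, 297, 498 and 33 to 623 in the same order. The IGF list had 2 calls, against 0 with T2 turned, 6 with a dye term, 5 after centring and scaling, 6 at 0.10 and 2 to 6 with 1 array left out. Cell type markers had 8 calls, against 0 with T2 turned, 14 with a dye term and 5 to 18 with 1 array left out. The share of higher calls over spots moved with scaling: 68 of 171 as deposited, 4 of 57 after median centring and 595 of 816 after centring and scaling.

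With T2 turned, Igfbp5 was at -0.33 and no longer passed, and these means changed sign without passing: Ghr (-0.091, gene and spot), Akt1 (0.068), Akt2 (0.14), Cc2d2b (-0.030), Igfbp4 (-0.18), Inpp5d (0.062), Jak2 (0.069), Kcnj16 (-0.11), Map2k1 (0.060), Map2k2 (0.093), Osbpl1a (-0.037), Ptpn1 (0.19) and Sh2b1 (0.087). Ghr was 0.99 with a dye term, 0.85 after centring and scaling and 0.85 at the threshold of 0.10, passing in each, and 0.57 to 1.17 with 1 array left out. The dye term rests on T2, the only array with testosterone in Cy3. Jak2 was 0.030 after median centring, 0.041 with scaling, 0.021 with values on at least 2 arrays and -0.047 to 0.046 with 1 array left out. Igf2r was 0.0030 after median centring and -0.10 to 0.012 with 1 array left out, and Igf1r -0.13 to 0.20. Causes were not tested. Each ratio is taken within a matched pair, so the tests against 0 are paired already.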
